A study of Mus musculus with 8 samples.

Results

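Transcripts of 10 genes of 3 vasoactive systems were followed in the left ventricle of mice given angiotensin II (ANG II), a hormone that constricts vessels and raises pressure. They were the endothelin genes Edn1, Edn3, Ednra, Ednrb and Ece1, the nitric oxide synthase genes Nos1, Nos2 and Nos3, and the adrenomedullin genes Adm and Ramp2. All were taken by symbol from a table of 55679 genes, and each symbol matched 1 gene. RNA-seq had been carried out on 8 libraries from male wild-type C57BL/6J mice, 4 infused with saline (control) and 4 with 1500 ng/kg/min ANG II, both for 7 days through a pump under the skin. Blood was flushed from the hearts, and the libraries were made from whole left ventricle. The study's methods call its samples biological replicates, and the labels number the libraries within a group without naming the mouse behind each. The question was how each system's transcripts differed between hypertensive and control ventricles.

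Endothelins are short peptides that contract vessels. They are cut from an inactive precursor by endothelin-converting enzyme, encoded by Ece1, and are bound by the A-type receptor Ednra, found largely on smooth muscle, fibroblasts and cardiomyocytes, and the B-type receptor Ednrb, which is also found on endothelium. Nitric oxide acts the other way. It is made from arginine by the synthases Nos1 (neuronal), Nos2 (inducible) and Nos3 (endothelial), and it relaxes smooth muscle through soluble guanylate cyclase and cyclic GMP. Adrenomedullin, encoded by Adm, also dilates vessels. Its receptor is a pair of proteins, the receptor Calcrl and the accessory protein Ramp2 or Ramp3, while Calcrl with Ramp1 binds calcitonin gene-related peptide.

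The libraries held 14455664 to 16564831 fragments, as recovered from the steps of the deposited FPKM values (fragments scaled to transcript length and library total). The median of all tested genes lay 0.15 higher in ANG II on the log2 scale, so each gene is also given relative to that shift where it bears on the result. The marker counts that follow stand against 14.0% of all tested genes called higher and 1.41% called lower, and 1 of 12 endothelial markers is no more than that share. Of the labelled tissue's cells, cardiomyocyte markers summed to 48332 to 49130 FPKM in control and 36268 to 39193 FPKM under ANG II, with 2 of 10 called lower. The endothelial markers summed to 702 to 752 FPKM in control and 794 to 885 FPKM under ANG II, with 1 of 12 called higher, and smooth muscle and pericyte markers to 560 to 639 FPKM and 613 to 677 FPKM, with 4 of 10 called higher and 1 lower. Fibroblast markers summed to 441 to 596 FPKM in control and 1933 to 2244 FPKM after ANG II, with 8 of 10 called higher, and macrophage markers to 277 to 348 FPKM and 609 to 844 FPKM, with 9 of 10 called higher. The sums of the smaller lists were 2.60 to 6.85 FPKM and 8.91 to 22.5 FPKM for neutrophils (4 of 6 tested called higher), 6.61 to 11.1 FPKM and 7.88 to 11.3 FPKM for Schwann and neuronal cells (1 of 7 called lower), 53.2 to 60.9 FPKM and 67.6 to 83.7 FPKM for lymphatic endothelium (2 of 6 called higher) and 6.30 to 8.21 FPKM and 6.05 to 9.31 FPKM for mesothelium (0 of 6 called). The neutrophil genes Ly6g and Mpo and the neuronal gene Th were at or under 3 fragments. In whole tissue a change in the number of cells of a type and a change in RNA per cell cannot be told apart, and the part of cell composition in the results that follow was not tested.

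Calling a gene took an adjusted p-value under 0.05 (limma, Benjamini-Hochberg over 19364 tested genes) together with a log2 fold change above 0.5 or below -0.5. Of the 10 genes, 9 reached a mean of 0.1 FPKM and were tested, and Nos1 did not. Edn1 and Edn3 were called higher, 2 of 9, against a background of 14.0% of all tested genes called higher. The 5 endothelin genes passed the adjusted p-value threshold and lay higher in ANG II, against 28.4% of all tested genes, and none of Nos2, Nos3, Adm and Ramp2 did. No gene of the 10 passed it as lower, against 4.91% of all tested genes. The ranges of the groups were apart, with ANG II above, for 3 of the 9 genes (Ednra, Ednrb and Ece1), against 28.7% of all tested genes. None was called lower, against 1.41% of all tested genes.

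**Figure D1:**
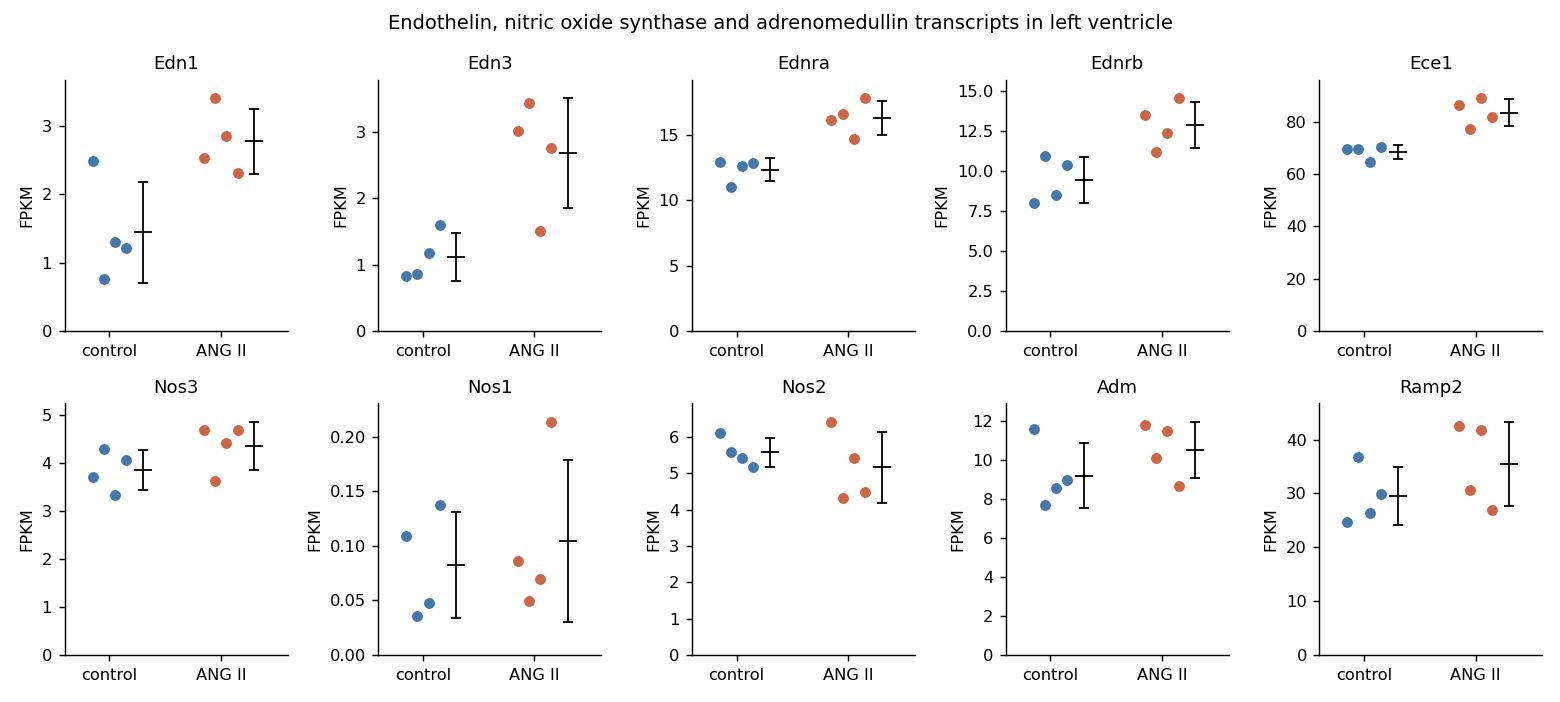
FPKM of the 10 genes in the 4 control (blue) and 4 ANG II (orange) libraries, with the mean and SD of each group as the black mark, on axes that start at 0. The ANG II points lie above all control points for Ednra, Ednrb and Ece1. For Edn1, 1 control library (2.49 FPKM) lies among the ANG II points, and for Edn3, ANG II 3 (1.51 FPKM) lies just under control 4 (1.604 FPKM). The groups also overlap for Nos1, Nos2, Nos3, Adm and Ramp2.

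The ligand genes Edn1 and Edn3 were the called pair, and their promoters are shown for that reason. RefSeq promoters (250 bases before to 50 after the start, GRCm38.p6) were given for 7 of the 10 genes. Capitals mark matches to 6 short motifs, read on both strands. Edn1 is at chr13:42301226-42301525 and Edn3 at chr2:174760369-174760668, both on the plus strand.
Edn1: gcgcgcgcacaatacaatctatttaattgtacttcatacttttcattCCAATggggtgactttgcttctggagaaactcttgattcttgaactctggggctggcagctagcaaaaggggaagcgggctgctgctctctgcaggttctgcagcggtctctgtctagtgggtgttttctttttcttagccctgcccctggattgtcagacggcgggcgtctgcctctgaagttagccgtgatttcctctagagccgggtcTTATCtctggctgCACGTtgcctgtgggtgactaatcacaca
Edn3: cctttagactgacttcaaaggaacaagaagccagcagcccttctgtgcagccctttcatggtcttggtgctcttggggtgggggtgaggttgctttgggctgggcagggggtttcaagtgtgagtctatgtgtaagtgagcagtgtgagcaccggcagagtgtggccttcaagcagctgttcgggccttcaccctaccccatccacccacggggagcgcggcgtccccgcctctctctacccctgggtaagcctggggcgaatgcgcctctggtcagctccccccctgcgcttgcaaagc
In the Edn1 window the CCAAT box began at base -203 relative to the start. The GATA core, searched as GATAA, was on the other strand from +8, where the plus strand reads TTATC. The HIF core, searched as ACGTG, was on the other strand from +21, where the plus strand reads CACGT. Such matches are common, since of 32851 promoters of this length 37.4% held the first, 25.4% the second and 19.6% the third. The Edn3 window held none of these, nor the AP-1 motif TGACTCA (5.20% of promoters), the CRE, searched as TGACGTCA (1.79%), or the TATA box, searched as TATAAA (13.6%). Exact matches to these last 3 were not in the Edn1 window either. Variants were not searched, and near its end the Edn1 window reads tgactaa, close to TGACTCA. CRE reads the same on both strands, and the other motifs were not found overlapping in these windows.

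Edn1 (ENSMUSG00000021367, chromosome 13, 42301476 to 42307990), which encodes the main endothelin peptide of the heart, rose. Gene positions here are those of GENCODE M21 on GRCm38. Its control values were 2.49, 0.768, 1.30 and 1.22 FPKM and its ANG II values 2.53, 3.40, 2.84 and 2.31 FPKM. Control 1 stood at the level of the ANG II libraries, and the other 3 control libraries lay below all 4 of them. The mean went from 1.44 ± 0.735 to 2.77 ± 0.473 FPKM (SD, n = 4), a ratio of 1.92, and the log2 fold change was 0.66 (limma adjusted p = 0.0259, SE 0.195). Behind these values stood 24 to 77 fragments per library in control and 79 to 116 in ANG II. The call depended on which libraries entered. Without control 2 the adjusted p was 0.0589, without control 3 0.0603, without control 4 0.0635, without ANG II 2 0.0682 and without ANG II 3 0.0551, whereas without control 1 it was 0.00303 (limma).

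Edn3 (ENSMUSG00000027524, chromosome 2, 174760619 to 174784042), the ligand best known for steering neural crest cells through Ednrb, rose as well. It stood at 0.829, 0.860, 1.17 and 1.604 FPKM in control and at 3.01, 3.44, 1.51 and 2.75 FPKM under ANG II. ANG II 3 lay just under the highest control library, and the other 3 ANG II libraries were above all controls. The mean rose from 1.12 ± 0.360 to 2.68 ± 0.828 FPKM (SD, n = 4), a ratio of 2.40, and the log2 fold change was 0.78 (limma adjusted p = 0.0108, SE 0.191). The fragments behind it numbered 21 to 43 per library in control and 40 to 96 in ANG II. The call held with each library left out. Because 1 FPKM was added before the logarithm, both fold changes understate the ratio of the means. With voom on the recovered fragments, which adds far less, they were 1.05 for Edn1 and 1.23 for Edn3 (limma adjusted p = 0.00848 and 0.00725). The median of all genes was also higher in the voom fit, at 0.23 against 0.15.

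The receptor genes differed by less. Ednra (ENSMUSG00000031616, chromosome 8, 77663031 to 77724464) stood at 12.9, 11.0, 12.6 and 12.8 FPKM in control and 16.1, 16.6, 14.7 and 17.8 FPKM under ANG II, and the log2 fold change was 0.37 (limma adjusted p = 0.00466, SE 0.0771). Ednrb (ENSMUSG00000022122, chromosome 14, 103814625 to 103844402) stood at 8.001, 10.9, 8.50 and 10.4 FPKM in control and 13.5, 11.2, 12.4 and 14.5 FPKM under ANG II, and the log2 fold change was 0.41 (limma adjusted p = 0.0180, SE 0.113). All ANG II libraries lay above all control libraries for both receptors, by a small margin for Ednrb, and both missed the fold change threshold. The adjusted p of Ednrb was 0.0526 without control 3, 0.0508 without ANG II 1 and 0.0507 without ANG II 4 (limma), and that of Ednra stayed under 0.05 with each library left out. The log2 ratio of Ednra to Ednrb within a library, which does not depend on how libraries are scaled, averaged 0.39 ± 0.300 in control and 0.34 ± 0.151 after ANG II (SD, n = 4, exact two-sided permutation p = 0.686, adjusted over 5 ratios 0.857), with a standard error of the difference of 0.168. No shift of one receptor against the other was detected at this precision.

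Ece1 (ENSMUSG00000057530, chromosome 4, 137862237 to 137965229), the converting enzyme, had the highest mean FPKM of the 10 genes. It stood at 69.6, 69.6, 64.4 and 70.2 FPKM in control and 86.3, 77.0, 88.8 and 81.6 FPKM under ANG II. The groups were apart and the spread was narrow, with means of 68.5 ± 2.69 and 83.4 ± 5.24 FPKM (SD, n = 4), a log2 fold change of 0.28 and a limma adjusted p of 0.00399 (SE 0.0563). The value passed the adjusted p-value threshold but missed that on the fold change.

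How the libraries were scaled bore on the endothelin genes. Median-of-ratios scaling, which sets the typical gene to equal levels, moved the median of all genes to 0.00. Under it Edn3 was at 0.64 (limma adjusted p = 0.0338) and stayed called, while Edn1 was at 0.51 (adjusted p = 0.0818), Ednra at 0.16 (0.167), Ednrb at 0.20 (0.213) and Ece1 at 0.05 (0.524). Under quantile normalization none of the 5 passed, with Edn1 at 0.38 (adjusted p = 0.193) and Edn3 at 0.50 (adjusted p = 0.0964). All 5 kept a positive fold change under both. In the deposited values, relative to the median of all tested genes, Edn3 stood higher by 0.63, Edn1 by 0.51, Ednrb by 0.27, Ednra by 0.23 and Ece1 by 0.13 on the log2 scale.

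**Figure D2:**
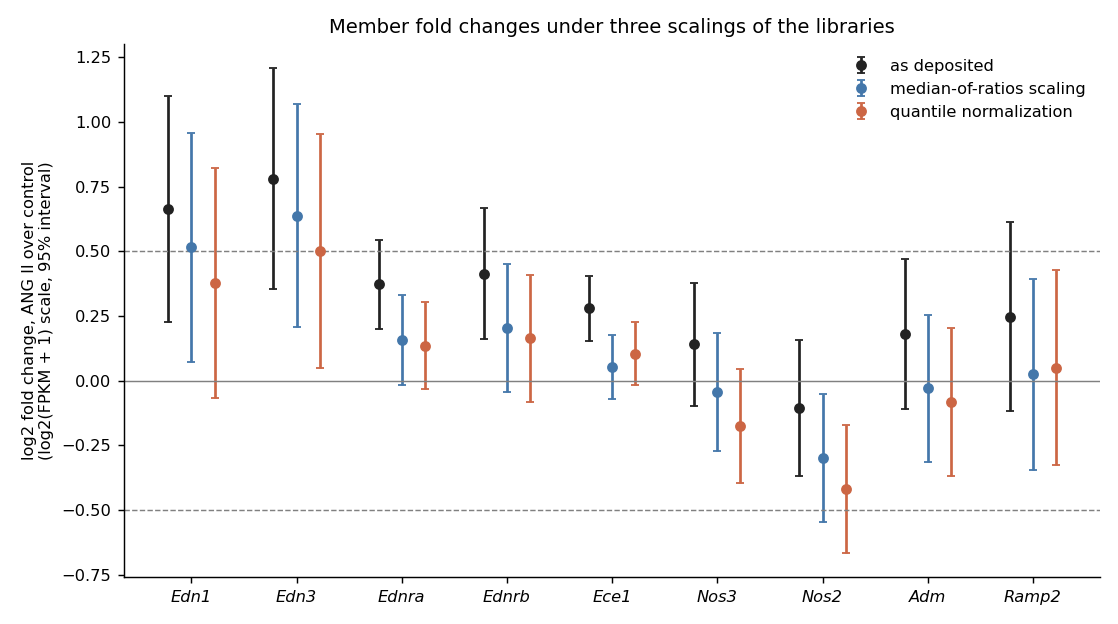
Log2 fold change (ANG II over control, on the log2(FPKM + 1) scale) with its 95% interval for the 9 tested genes, from the values as deposited (black) and after median-of-ratios (blue) and quantile (orange) scaling; dashed lines mark the fold change threshold of 0.5. Edn1 falls from 0.66 to 0.51 and 0.38 and Edn3 from 0.78 to 0.64 and 0.50, while Nos3 and Adm change sign.

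The synthases showed no call. Nos3 (ENSMUSG00000028978, chromosome 5, 24364810 to 24384474), the endothelial enzyme, stood at 3.71, 4.30, 3.35 and 4.06 FPKM in control and 4.68, 3.62, 4.43 and 4.68 FPKM under ANG II. The groups overlapped, and the log2 fold change was 0.14 (SE 0.107, 95% interval -0.10 to 0.38, limma adjusted p = 0.353), with -0.04 and -0.18 after the other 2 scalings. The log2 ratio of Nos3 to the summed endothelial markers differed by -0.03 (exact two-sided permutation p = 0.829, adjusted 0.857, SE 0.125). Of its exonic length, 32.28% lies under genes on the other strand, among them Atg9b, and the use of strand was not given in the sources used here, so part of its reads may belong to them.

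Nos2 (ENSMUSG00000020826, chromosome 11, 78920787 to 78960254), the enzyme of activated macrophages, stood at 6.13, 5.60, 5.44 and 5.18 FPKM in control and 6.42, 4.33, 5.43 and 4.48 FPKM under ANG II. It had the highest and the lowest value of all 8 libraries within the ANG II group, and its log2 fold change was -0.11 (SE 0.117, 95% interval -0.37 to 0.16, limma adjusted p = 0.528). Macrophage markers were higher in the same libraries (9 of 10 called), and Nos2 was not. After quantile normalization its fold change was -0.42 (limma adjusted p = 0.0185), the only value of the 9 genes to pass as lower under a scaling, and after median-of-ratios scaling it was -0.30 (0.0737).

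Nos1 (ENSMUSG00000029361, chromosome 5, 117781032 to 117958840), the neuronal enzyme, had the lowest level of the 10 genes. It stood at 0.109, 0.0359, 0.0475 and 0.137 FPKM in control and 0.0864, 0.0493, 0.0693 and 0.213 FPKM under ANG II. These values rest on 2 to 8 fragments in control and 3 to 13 in ANG II, and the gene was left out of the test by the filter on low values, so only the values are given.

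The adrenomedullin genes were not called. Adm (ENSMUSG00000030790, chromosome 7, 110627661 to 110629820) stood at 11.6, 7.68, 8.55 and 8.96 FPKM in control and 11.8, 10.1, 11.5 and 8.65 FPKM under ANG II, with a log2 fold change of 0.18 (SE 0.130, 95% interval -0.11 to 0.47, limma adjusted p = 0.328). Control 1 was high and ANG II 4 was low, and the sign turned after median-of-ratios (-0.03) and quantile (-0.08) scaling. Ramp2 (ENSMUSG00000001240, chromosome 11, 101246028 to 101259546) stood at 24.7, 36.8, 26.4 and 29.98 FPKM in control and 42.5, 30.6, 41.7 and 27.0 FPKM under ANG II. ANG II 1 and 3 lay above all controls and ANG II 2 and 4 within their range, and the log2 fold change was 0.25 (SE 0.163, 95% interval -0.12 to 0.61, limma adjusted p = 0.282). Ramp2 shares 33.41% of its exonic length with Vps25 on the same strand and 30.66% of its 50-base words with that gene, so its values are uncertain.

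Calcrl, the receptor that pairs with Ramp2, was called higher, and Ramp1, which pairs with Calcrl in the other receptor, was called lower. Calcrl rose from 11.96, 14.0, 8.81 and 12.7 FPKM to 21.7, 19.9, 20.9 and 18.7 FPKM, and the log2 fold change was 0.74 (limma adjusted p = 0.00127, SE 0.121). Ramp1 fell from 4.75, 7.24, 6.34 and 6.10 FPKM to 4.07, 3.39, 3.78 and 4.15 FPKM, and the log2 fold change was -0.54 (limma adjusted p = 0.00644, SE 0.120). The groups were apart for both genes, and both calls held under median-of-ratios and quantile scaling. Ramp3 stood at 2.21 to 2.50 FPKM in control and 2.84 to 4.16 FPKM under ANG II, with a log2 fold change of 0.44 (limma adjusted p = 0.0144), and missed the fold change threshold.

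The FPKM ratio of Ramp2 to Calcrl was taken within each library. It carries the uncertainty of Ramp2 from Vps25, and since Calcrl also pairs with Ramp1 and Ramp3 it is a ratio of transcripts, not a measure of receptors. It was 2.07, 2.62, 3.00 and 2.36 in the control libraries and 1.95, 1.54, 2.00 and 1.44 in the ANG II libraries. The groups were apart. On the log2 scale the ratio went from 1.32 ± 0.228 to 0.78 ± 0.240 (SD, n = 4), a difference of -0.54 (SE 0.166), with an exact two-sided permutation p of 0.0286, the smallest that 4 against 4 libraries can give. Adjusted over the 5 ratios it was 0.143 and did not pass. Ramp2 relative to the summed endothelial markers differed by 0.05 (exact permutation p = 0.857, adjusted 0.857), and Ednrb relative to them by 0.24 (exact permutation p = 0.257, adjusted 0.643).

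**Figure D3:**
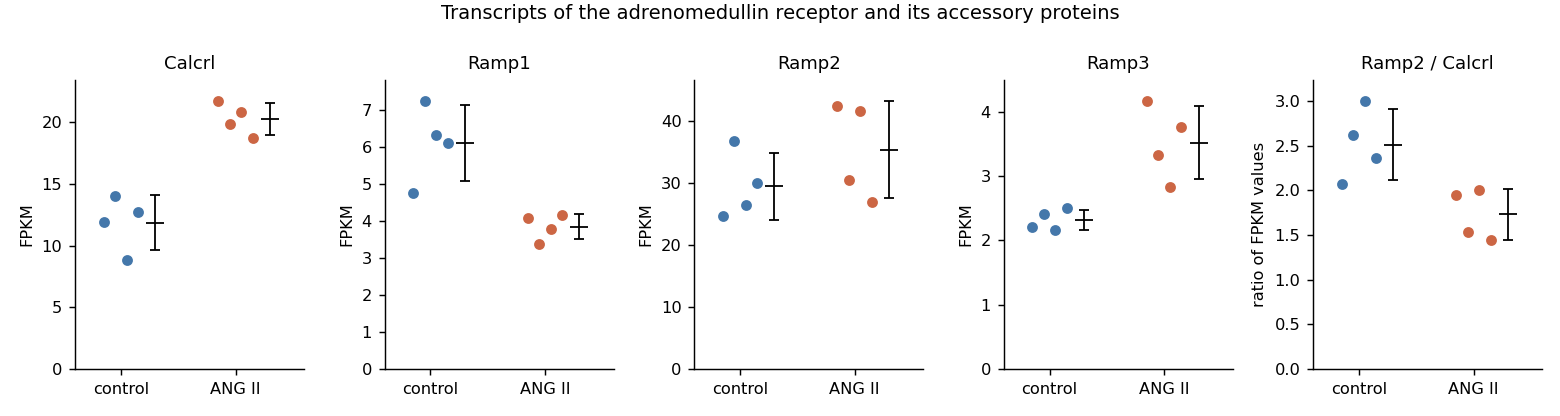
FPKM of Calcrl and its accessory proteins Ramp1, Ramp2 and Ramp3, and the ratio of Ramp2 to Calcrl, in the 4 control (blue) and 4 ANG II (orange) libraries, with group mean and SD in black. Calcrl lies above all controls in ANG II and Ramp1 below, Ramp2 overlaps, and the ratio goes from 2.07 to 3.00 in control to 1.44 to 2.00 in ANG II.

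FPKM is set per kilobase, so levels can be ranked. From the highest to the lowest mean the order was Ece1, Ramp2, Ednra, Ednrb, Adm, Nos2, Nos3, Edn1, Edn3 and Nos1 in both groups. In control the ranges of neighbours overlapped for Ednrb and Adm and for Edn1 and Edn3, and in ANG II also for Nos2 and Nos3. The FPKM values fit the mean length of a gene's transcripts. Taken per longest transcript instead, Ece1 came to 21.5 ± 0.842 FPKM in control and 26.1 ± 1.64 FPKM under ANG II (SD, n = 4). Ramp2 came to 17.4 ± 3.16 and 20.9 ± 4.61 FPKM, nearer to Ece1 than by mean length. The order of the means changed only in ANG II, where Nos3 came above Nos2. In control Nos2 and Nos3 were close, at 3.67 and 3.65 FPKM. Ranges of neighbours were not compared by this measure.

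A list of 63 partner genes, chosen with earlier results of these data known, describes the rest of these pathways, and 54 of them were tested. Of these, 16 were called higher (background 14.0%) and 3 lower (background 1.41%), with a median log2 fold change of 0.27 beside 0.15 over all tested genes. After median-of-ratios scaling 8 were called higher and 5 lower, and after quantile normalization 9 higher and 5 lower.

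Supply and protection of nitric oxide synthesis held the 3 highest fold changes of the list, with 5 of 14 tested genes called higher and none lower as deposited, against 14.0% and 1.41% of all tested genes. Ddah1, which degrades the synthase inhibitor asymmetric dimethylarginine, rose from 3.01, 4.52, 3.36 and 3.46 FPKM to 22.2, 28.1, 11.0 and 18.9 FPKM, and the log2 fold change was 2.14 (limma adjusted p = 0.000145, SE 0.235). Slc7a2, a transporter of arginine, rose from 1.12, 1.30, 0.670 and 1.55 FPKM to 5.27, 5.18, 3.69 and 4.54 FPKM, with a log2 fold change of 1.40 (limma adjusted p = 0.000139). The lowest ANG II library of each gene was over the highest control library by more than 2 FPKM. Ass1 and Asl, which rebuild arginine from citrulline, rose by 1.44 and 0.54 on the log2 scale, and Ddah2, the relative of Ddah1, by 0.83. Of these called genes, Asl alone lost its call under both other scalings. Slc7a1, another arginine transporter and the more abundant of the pair, went the other way, with a mean of 25.6 FPKM in control and 19.6 FPKM under ANG II and a log2 fold change of -0.37 (limma adjusted p = 0.0275), under the fold change threshold. It was called lower, at -0.59, under both other scalings (limma adjusted p = 0.0033 and 0.0036). It was named after its values were seen. Ass1 shares 38.62% of its 50-base words with the pseudogene Gm5424, so its level is uncertain. Gch1, which limits the synthesis of the cofactor tetrahydrobiopterin, did not pass (log2 fold change -0.02, limma adjusted p = 0.898).

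**Figure D4:**
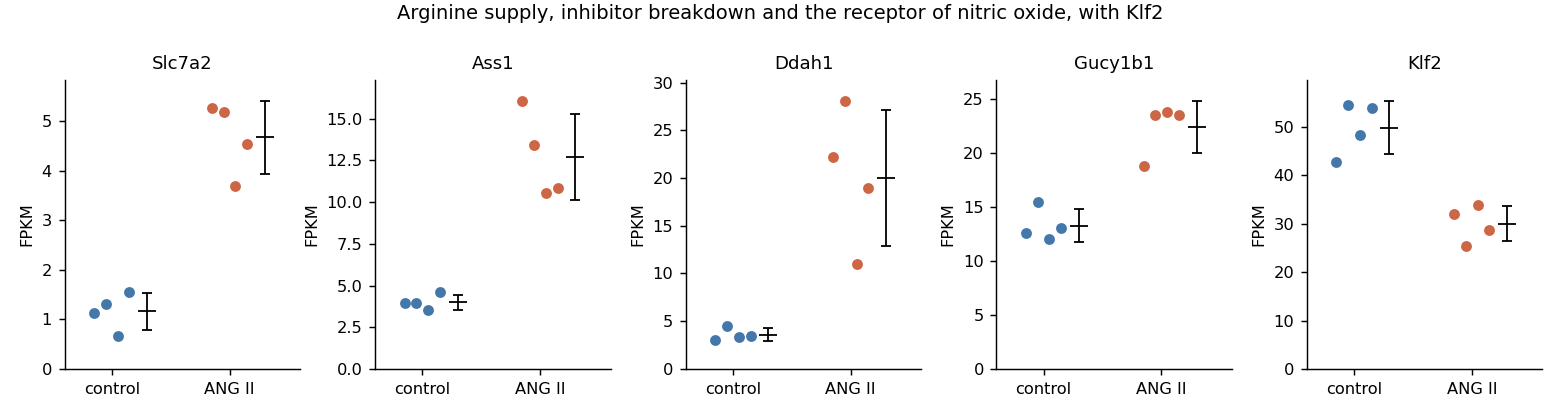
FPKM of the arginine transporter Slc7a2, the arginine-making enzyme Ass1, the inhibitor-degrading enzyme Ddah1, the cyclase subunit Gucy1b1 and the transcription factor Klf2 in control (blue) and ANG II (orange) libraries, with group mean and SD in black. All 4 ANG II libraries lie above all controls for the first 4 genes, with a Ddah1 mean of 20.0 against 3.59 FPKM, and below them for Klf2.

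The targets of nitric oxide had 4 of 8 genes called higher, against 14.0% of all tested genes. The cyclase subunits Gucy1a1 and Gucy1b1, which bind nitric oxide and make cyclic GMP, rose by 0.62 and 0.71 on the log2 scale (limma adjusted p = 0.00401 and 0.000492). The kinase of cyclic GMP, Prkg1, rose by 0.57 and its substrate Vasp by 0.68. These 4 calls were lost under median-of-ratios scaling, and only that of Vasp held under quantile normalization. Pde5a, which breaks cyclic GMP down, did not pass (log2 fold change 0.28, limma adjusted p = 0.156). Of 12 synthase partners 2 were called higher, a share near the 14.0% of all tested genes. These were Dynll1, a protein that binds Nos1 and is also part of dynein, with 1.07, and the calmodulin gene Calm2 with 0.60, and the call of Dynll1 but not of Calm2 held under both other scalings. Cav1, which holds Nos3 in caveolae, had a log2 fold change of 0.45 (limma adjusted p = 0.00823), under the fold change threshold.

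In the endothelin list 1 of 7 tested genes was called higher, a share near the 14.0% of all tested genes, and 1 lower, against 1.41%. Plcb1, a phospholipase downstream of the receptors, rose by 0.73 (limma adjusted p = 0.0102). Mme, the neprilysin gene whose product degrades endothelin and natriuretic peptides, fell by 0.65 on the log2 scale (limma adjusted p = 0.00563). Mme was at 5.03, 4.68, 4.89 and 4.54 FPKM in control and at 2.19, 2.06, 3.50 and 3.25 FPKM under ANG II, all lower. Its call held under both scalings, and that of Plcb1 held under median-of-ratios scaling. Edn2 and Ece2 were listed at most at 0.129 and 0.309 FPKM and were not tested, nor was Adm2.

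Of 7 adrenomedullin partners 3 were called higher, Calcrl and Pam among them, and 1 lower, against 14.0% and 1.41% of all tested genes. Pam, which amidates adrenomedullin and other peptides, rose by 0.71 from a control mean of 410 FPKM, and its call held under quantile normalization but not under median-of-ratios scaling. Among 6 transcription factors of these pathways 1 was called higher, a share near the 14.0% of all tested genes, and 1 lower, against 1.41%. Hif1a rose by 0.57, and Klf2, a flow-induced factor that drives Nos3 in endothelium, fell by 0.72 on the log2 scale (limma adjusted p = 0.000576). Klf2 was at 42.8, 54.5, 48.3 and 53.9 FPKM in control and at 32.0, 25.5, 33.8 and 28.8 FPKM under ANG II, and its call held under both scalings. That of Hif1a held under neither.

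**Figure D5:**
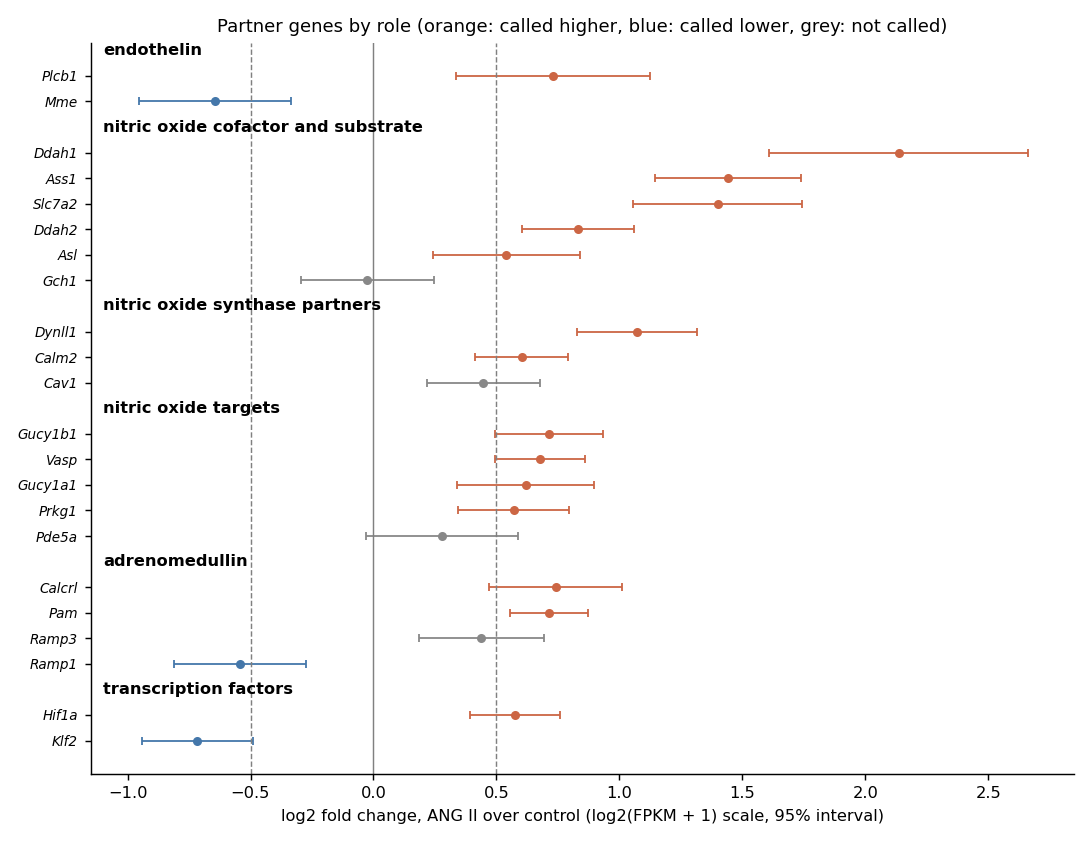
Log2 fold change (ANG II over control, on the log2(FPKM + 1) scale) with its 95% interval for the tested partner genes that are reported singly, other than Slc7a1. Genes are grouped by role, with those called higher in orange, called lower in blue and not called in grey. Ddah1 at 2.14 lies farthest to the right, and Klf2 at -0.72 and Mme at -0.65 farthest to the left.

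The genes whose log2(FPKM + 1) followed the called members most closely over the 8 libraries were named by Pearson r, as a description over 12947 genes. For Edn1 these were Rnd3 (r = 0.987), Blm (0.982) and Hba-a1 (0.974), and for Edn3 they were Aff4 (0.992), Acta1 (0.988) and Gapvd1 (0.984). With the group means removed, these r values were 0.950 to 0.977. The genes were picked as the highest of 12947 in the same libraries, so neither set of r values is a separate check. The points share library, depth and cell composition.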

How the data were processed

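For 8 left ventricle libraries, the authors deposited FPKM values, fragments scaled by transcript length and library total. The submitters' notes name Bowtie2, HISAT and RSEM, without versions, and the genome build, annotation and use of strand were not given in the sources used here. Fragments were recovered from the steps of the deposited FPKM values with mean transcript lengths from GENCODE M21 (GRCm38). At least 97.6% of values under 60 fragments were whole within 0.05. Counting error is the only error such counts cover.

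limma 3.58.1 in R 4.3.3 (lmFit, eBayes with a variance trend) was run on log2(FPKM + 1) for all 8 libraries, without covariates, keeping genes that averaged 0.1 FPKM or more, and was tested on simulated data. The study names limma and both thresholds, adjusted p-value 0.05 and fold change 0.5 on a log scale. The base, the pseudocount and the filter were choices of this work. Ratios were compared by exact permutation over 70 allocations, adjusted by the Benjamini-Hochberg method over 5 ratios. Python 3.11.15, scipy 1.17.1 and matplotlib 3.10.9 were used.

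The members, the partner list and the marker lists were chosen with earlier results of these data known. The text names all 10 members, the called partner genes, their direct partners, and the 3 genes most like each called member. Some genes that this rule picks are not reported here singly, and counts over the list keep them. Alternatives changed the pseudocount (0.1), the filter, the scaling, the trend, the replicate block, or left out a library. Those chosen after the data were seen were limma's voom on the recovered fragments, the adjusted p-value alone, and levels per longest transcript. Not all samples that the study describes were used here.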

Additional observations from a re-analysis of the deposited data

Results flagged for a closer look

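Over 30 groups of 4 values (each member and ratio in each group), 2 held a library whose gap to the nearest other, as a share of the group's range, was above Dixon's critical value of 0.83. Chance flags about 1 in 20 such groups. For Ece1 in control, control 3 at 64.4 FPKM lay below the other 3 at 69.6 to 70.2 FPKM, with a gap share of 0.894. For the log2 ratio of Ednra to Ednrb in ANG II, ANG II 2 had an Ednra level 1.48 times that of Ednrb against 1.19 to 1.22 times in the others, with a gap share of 0.870.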

How the results depend on the processing

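Edn1 and Edn3, 2 members, were called in the fit as described. The count was 1 without a filter, 1 under median-of-ratios scaling, 0 under quantile normalization, 5 by the adjusted p-value alone, and 1 to 2 with 1 library left out. Edn1 kept its direction in all 17 alternatives and lost its call in 9, with a limma adjusted p of 0.00303 to 0.193, and Edn3 lost its call in 1, with 0.00193 to 0.0964. The partner list had 19 calls, 13 to 33 over the alternatives, with 33 by the adjusted p-value alone. Calls split 16 higher to 3 lower as deposited (84.2% higher), 8 to 5 after median-of-ratios (61.5%) and 9 to 5 after quantile scaling (64.3%). Nos3 reversed to a log2 fold change of -0.044 after median-of-ratios and -0.18 after quantile scaling, and Adm to -0.029 and -0.083, and the cause was not tested. Over all genes, calls were 2708 higher and 273 lower as deposited, 1672 and 806 after median-of-ratios, and 1413 and 986 after quantile scaling.

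With the replicate number as a block, 1 member was called (Edn1 adjusted p = 0.0513). After each gene's group mean was removed, same-numbered libraries correlated by -0.0433 to 0.0921 (Pearson r), so the numbers were not taken to pair them. The log2 ratio of Ramp2 to Calcrl was -0.54 under the block (exact sign-flip p = 0.125, the smallest that 4 pairs allow) and -0.63 to -0.45 with 1 library left out (exact permutation p of 0.0286 to 0.0571). The other 4 ratios kept their side of the threshold. Edn1, Edn3 and Nos1 rest on few fragments, and 4 libraries a group limit the precision of every value.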
